A study of Mus musculus with 6 samples.

Results

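The set comprised 10 genes of the vascular endothelial growth factor (VEGF) system: the ligands Vegfa, Vegfb, Vegfc, Vegfd and Pgf, the receptor tyrosine kinases Flt1, Kdr and Flt4, and the neuropilins Nrp1 and Nrp2. They were taken by gene symbol as the targets of axitinib and the ligands and co-receptors of those targets. All 10 were among the 53465 genes of the deposited table, 9 had at least 1 count and 7 passed the filter on low counts.

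VEGF ligands are secreted dimers that bring receptor kinases together on the cell surface. Kdr (VEGFR2) carries most of the signal for vessel growth, Flt1 (VEGFR1) binds Vegfa, Vegfb and Pgf and also exists as a soluble decoy, and Flt4 (VEGFR3) binds Vegfc and Vegfd and is best known from lymphatic endothelium. Neuropilins have no kinase of their own. They bind some VEGF forms and class 3 semaphorins and act beside VEGF receptors or plexins. Carcinoma cells are a well-known source of Vegfa for nearby vessels, while the receptor kinases are mainly known from endothelium.

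The libraries came from 4T1, a transplantable breast carcinoma line of the mouse. As the design text has it, axitinib-resistant 4T1 cells were obtained in mice, from lesions after surgery under continuous dosing with 100 mg/kg/day of axitinib, an inhibitor of the 3 VEGF receptor kinases, and were cultured for over 2 months in 0.5 µM axitinib. They were sorted on C12FDG, a fluorescent substrate of β-galactosidase, into SM positive (high signal, 3 libraries) and SM negative (low signal, 3 libraries) cells. Both fractions were thus resistant and kept in the drug, and cells never exposed to it were not analysed here. Whether the resistant cells were 1 clone is not said.

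Polyadenylated RNA was counted at 18733801 to 26533528 expected counts per library. Levels are given as CPM (read counts scaled to a common library size, with TMM factors), or per kilobase of merged exons where different genes are compared. Of 8 epithelial markers all were tested, and their summed level was 4204 to 4698 CPM per library, led by Krt7 and Krt18, keratins of simple epithelium. None of the 8 passed the test without a replicate block, and 3 fell with it, beside 5.6% of all genes tested. These were Epcam, Krt19 and Cldn4, named after their values were seen, at blocked log2 changes of -0.16, -0.88 and -0.16. All of these calls ended without pair 1 or pair 3 (adjusted p from 0.0764 to 0.237, edgeR), that of Krt19 also without pair 2 (0.0506). Of 10 endothelial markers only Egfl7, a secreted protein of endothelium and some other cells, passed the filter, with 5.57 ± 0.499 CPM in the SM positive fraction and 5.34 ± 0.839 CPM in the SM negative fraction (SD, n = 3). The next highest was Esam, an adhesion molecule of endothelial junctions, at 0.319 ± 0.0903 and 0.333 ± 0.208 CPM (SD, n = 3). Emcn and Cldn5, sialomucin and tight junction markers of endothelium, had no count in any library. Of the 5 lymphatic markers Prox1, Lyve1 and Mmrn1 had none either, and Pdpn and Reln had 3 and 2 counts over all 6 libraries.

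Promoter sequences are shown for the neuropilins, which differed from each other in level and in change, for Vegfa, the ligand with the most counts, and for Kdr, which with Flt4 was nearly absent and, unlike Flt4, has bases before its first annotated exon in the RefSeq window. Each run is sequence of build GRCm38.p6 before the RefSeq start, 5′ to 3′ on the strand of the gene. It was cut before any annotated exon in that window. The Nrp1 run overlaps no annotated exon but lies inside the annotated span of the gene, which begins upstream at 128358604. They lie at chr8:128358823-128359072 (Nrp1, plus strand), chr1:62703067-62703284 (Nrp2, plus strand), chr17:46032378-46032627 (Vegfa, minus strand) and chr5:75978459-75978705 (Kdr, minus strand). Capitals mark the GC box GGGCGG, bound by Sp-family factors, and the CCAAT box CCAAT, on either strand, where neighbouring matches may overlap.
Nrp1: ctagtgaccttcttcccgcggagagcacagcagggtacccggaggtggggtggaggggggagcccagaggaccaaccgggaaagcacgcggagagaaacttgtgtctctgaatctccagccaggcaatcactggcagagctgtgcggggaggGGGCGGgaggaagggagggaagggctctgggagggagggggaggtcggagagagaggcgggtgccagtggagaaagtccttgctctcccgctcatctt
Nrp2: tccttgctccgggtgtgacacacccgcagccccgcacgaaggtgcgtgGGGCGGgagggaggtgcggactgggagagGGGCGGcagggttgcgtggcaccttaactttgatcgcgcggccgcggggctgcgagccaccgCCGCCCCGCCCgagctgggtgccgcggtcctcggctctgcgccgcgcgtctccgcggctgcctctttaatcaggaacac
Vegfa: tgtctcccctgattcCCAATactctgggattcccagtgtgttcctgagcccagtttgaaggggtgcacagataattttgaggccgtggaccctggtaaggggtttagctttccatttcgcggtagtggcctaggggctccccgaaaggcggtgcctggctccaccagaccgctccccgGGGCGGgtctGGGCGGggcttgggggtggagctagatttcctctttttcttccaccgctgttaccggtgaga
Kdr: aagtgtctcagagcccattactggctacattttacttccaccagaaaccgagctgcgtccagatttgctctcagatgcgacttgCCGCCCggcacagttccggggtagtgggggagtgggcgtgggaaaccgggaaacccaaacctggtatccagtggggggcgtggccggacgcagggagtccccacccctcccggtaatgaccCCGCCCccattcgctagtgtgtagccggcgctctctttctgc

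The printed runs held 1 GC box for Nrp1, 4 for Nrp2, 2 for Vegfa and 2 for Kdr, and a CCAAT box stood in Vegfa alone of these. Over 32851 RefSeq promoters, 32.7% held a GC box and 33.8% a CCAAT box in the 250 bases before the start. In those 250 bases Nrp2 had 32 CG dinucleotides and Nrp1 11, against a median of 6 over all promoters. Kdr had 16 and Vegfa 11. Whether the count of CG dinucleotides goes with the level of a gene was not tested. The hypoxia response core ACGTG, searched on both strands, occurred in none of the 4 windows of 250 bases and in 16.6% of all promoters. Bases further upstream were not searched, so a match there is not excluded. A second Vegfa start annotated downstream, in the window chr17:46025164-46025413, had 1 such match and lies within an exon of the gene. RefSeq entries were found for all 10 genes.

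**Figure D1:**
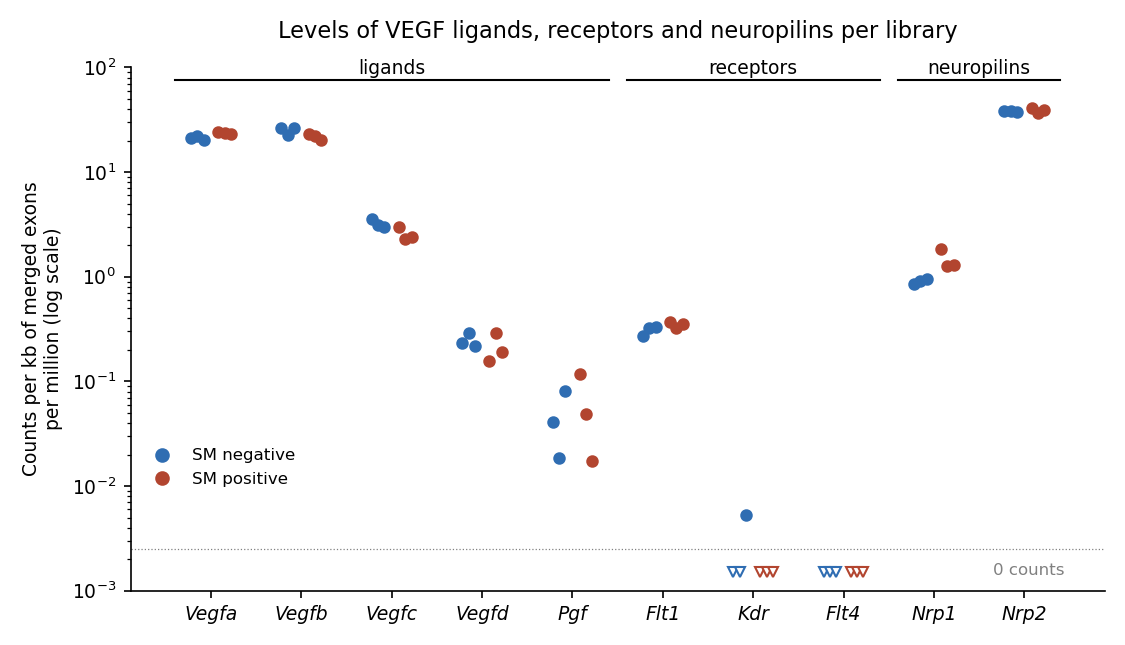
Level of each of the 10 genes in each library, as CPM per kilobase of merged exons on a log axis, with SM negative libraries in blue, SM positive libraries in red and libraries without a count as open triangles below the dotted line. Nrp2, Vegfb and Vegfa stand at 20.1 to 40.6, and Kdr and Flt4 have no count except 1 in a single SM negative library.

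The levels spanned a wide range. Averaged over the 6 libraries, Nrp2 stood highest at 38.5 CPM per kilobase, above 92.4% of the 15951 protein-coding genes with any count. Vegfb followed at 23.5 and Vegfa at 22.4, above 86.8% and 86.1% of those genes, and their ranges over libraries overlapped. Vegfc stood at 2.89 (above 47.3% of the genes), Nrp1 at 1.19 (above 38.3%) and Flt1 at 0.329 (above 30.9%). Vegfd at 0.229 overlapped with Flt1, and Pgf at 0.0539 lay below Vegfd in every library. In this order the ranges of other neighbours did not overlap, apart from Kdr and Flt4 at the bottom. The order depends on the length used where a gene has long minor transcripts. Per kilobase of the longest transcript, Nrp1 stood at 3.19 and overlapped with Vegfc at 2.89, and Flt1 at 0.644 stood clear of Vegfd at 0.269.

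Of the 3 receptor kinases, Kdr and Flt4 were nearly absent. Flt4 (ENSMUSG00000020357.3, chromosome 11, 49609263 to 49652739, plus strand) had 0 counts in all 6 libraries, which allows up to 0.113 to 0.16 CPM per library. Such limits cover counting error only. Kdr (ENSMUSG00000062960.10, chromosome 5, 75932827 to 75978458, minus strand) had 1 count, in SM negative replicate 3, among 132884659 counts in all libraries together. No difference between fractions was detectable for either gene at this depth.

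Flt1 (ENSMUSG00000029648.13, chromosome 5, 147561604 to 147726011, minus strand) was the receptor with a measurable level. Its counts were 132, 94 and 94 in SM positive replicates 1, 2 and 3 and 93, 82 and 94 in SM negative replicates 1, 2 and 3. This corresponds to 4.95, 4.39 and 4.76 CPM against 3.70, 4.38 and 4.45 CPM. SM negative replicate 1 was the lowest, and the fractions overlapped. The log2 change, SM positive over SM negative, was 0.18 ± 0.14 (SE) with a 95% interval of -0.14 to 0.50 (edgeR quasi-likelihood test, adjusted p = 0.662), so a fold between 0.905 and 1.41 remained within the interval. The counts do not separate the membrane form of Flt1 from its soluble form.

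Nrp1 was the 1 gene of the set that passed the test without a replicate block. Of 14038 genes tested, 1.35% passed in either direction with 1.14% higher and 0.214% lower in SM positive cells. Nrp1 (ENSMUSG00000025810.9, chromosome 8, 128358604 to 128503363, plus strand, with the microRNA gene Mir1903 inside an exon) had 17.9, 12.5 and 12.7 CPM in SM positive replicates 1, 2 and 3. In SM negative replicates 1, 2 and 3 it had 8.36, 8.97 and 9.29 CPM. All SM positive libraries lay above all SM negative ones, as for 10.4% of the genes tested (19.9% were separated in either direction), and SM positive replicate 1 lay well above the other SM positive libraries. In the pairs of libraries with the same replicate number the log2 differences were 1.10, 0.48 and 0.45. The log2 change was 0.70 ± 0.14 (SE), a 1.63-fold difference, with a 95% interval of the log2 change of 0.38 to 1.02 (edgeR, adjusted p = 0.0461).

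With the replicate number as a block, the log2 change of Nrp1 was 0.70 and the adjusted p 0.00316 (edgeR). Without SM positive replicate 1 the log2 change was 0.50 (edgeR, adjusted p = 0.0758), and the unblocked call ended with each of the 6 libraries left out (adjusted p from 0.052 to 0.163). With the block it held without any 1 of the 3 pairs (adjusted p from 0.00396 to 0.0254), at a log2 change of 0.46 without pair 1. Fibroblast and pericyte markers, a cell type that commonly carries Nrp1, summed to 6.12 to 8.46 CPM in the SM positive libraries and to 4.64 to 5.13 CPM in the SM negative ones. Of these 10 markers, 3 passed the filter and none passed the test without the block. Lum and Col3a1 had no count. Pdgfra, a platelet-derived growth factor receptor, made up most of the sum at 5.07 ± 1.11 and 3.55 ± 0.253 CPM (SD, n = 3; adjusted p = 0.246 without and 0.0423 with the block, edgeR). Its blocked call ended without any 1 pair (adjusted p from 0.0564 to 0.427), and without pair 3 the log2 change was 0.27 in place of 0.49. Col1a1, a chain of type I collagen, had 0.755 ± 0.104 and 0.556 ± 0.207 CPM (SD, n = 3). Their part in the Nrp1 difference was not tested, and in bulk RNA more cells of a kind and more RNA per cell cannot be told apart.

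**Figure D2:**
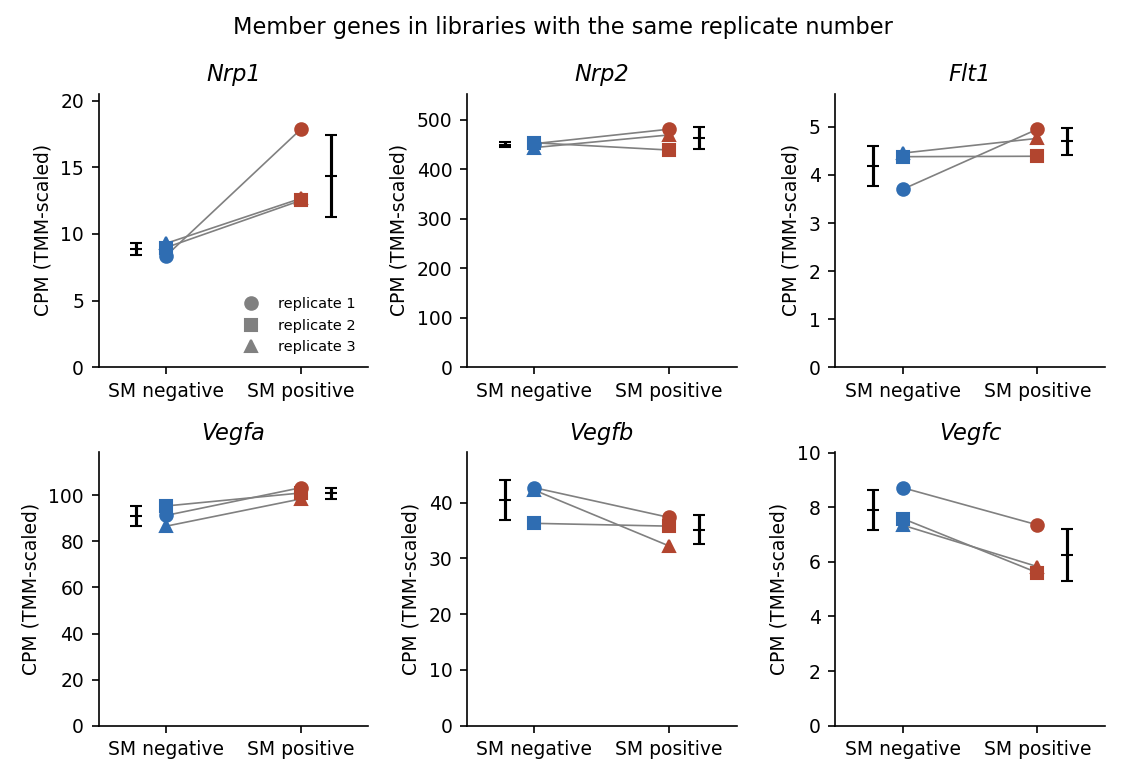
TMM-scaled CPM of 6 genes, with lines joining SM negative (blue) and SM positive (red) libraries that carry the same replicate number, marked by symbol, and black bars for the mean ± SD of each fraction. Nrp1 and Vegfa are higher in every SM positive library, and the other 4 genes overlap between fractions.

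Nrp2 (ENSMUSG00000025969.15, chromosome 1, 62703285 to 62818695, plus strand), the neuropilin best known as a partner of Flt4 and of semaphorin 3F, was far more abundant and did not pass the test. It had 481, 439 and 469 CPM in SM positive replicates 1, 2 and 3 and 451, 453 and 444 CPM in SM negative replicates 1, 2 and 3. SM positive replicate 2 was the lowest of the 6, so the fractions overlapped. The log2 change was 0.04 ± 0.053 (SE), with a 95% interval of -0.07 to 0.16 (edgeR, adjusted p = 0.794). That interval allows at most a 1.12-fold rise. Gm37121 and, on the opposite strand, Gm29083 lie within Nrp2, and neither overlaps its exons.

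Per kilobase of merged exons, Nrp2 exceeded Nrp1 by 22.2, 29.0 and 30.6 times in SM positive replicates 1, 2 and 3. In SM negative replicates 1, 2 and 3 the ratio was 44.6, 41.7 and 39.5. The ratio was lower in every SM positive library than in every SM negative one. Per kilobase of the longest transcript it was 14.6 to 20.1 and 25.9 to 29.3, with the same separation. The ratio restates the levels above, where Nrp1 was separated between fractions and Nrp2 was not, and it was not tested.

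Among the ligands, Vegfa was higher and Vegfb and Vegfc were lower in SM positive cells by small amounts that passed the test only with the replicate block. With the block, 4 of the 7 tested genes passed, Nrp1 and Vegfa higher and Vegfb and Vegfc lower, beside 14.1% of all genes tested (8.52% higher and 5.6% lower). For 5 of the 7 tested genes the difference had 1 direction in all 3 pairs, beside 46.6% of all genes tested.

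**Figure D3:**
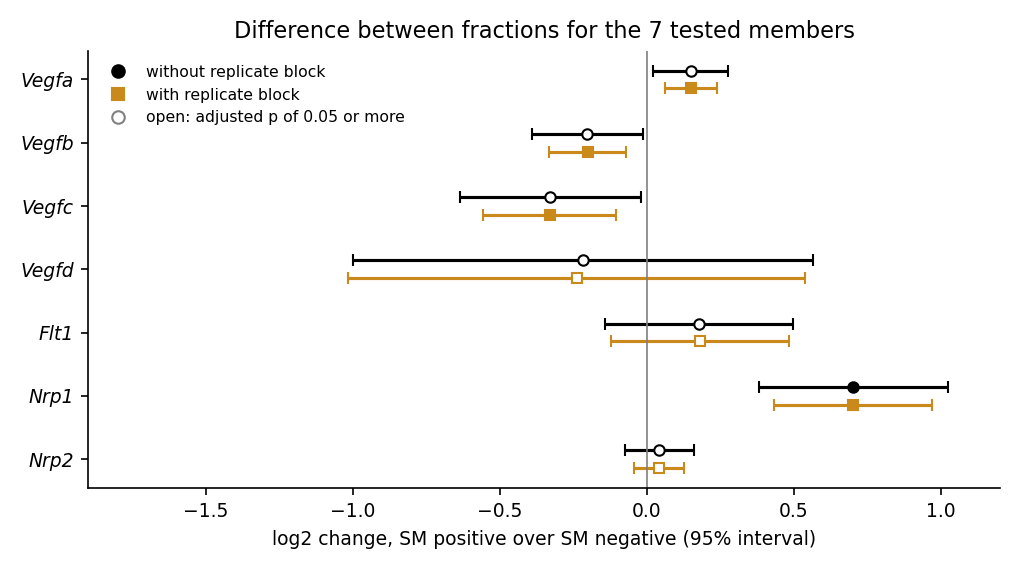
Log2 change (SM positive over SM negative) of the 7 tested genes with 95% intervals, from edgeR fits without (black circles) and with (orange squares) the replicate block; filled symbols have an adjusted p under 0.05. Nrp1 is filled in both fits, at 0.70, while Vegfa, Vegfb and Vegfc are filled only with the block.

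Vegfa (ENSMUSG00000023951.17, chromosome 17, 46016993 to 46032369, minus strand), the main ligand of Kdr and Flt1, had 103, 101 and 98.4 CPM in SM positive replicates 1, 2 and 3. In SM negative replicates 1, 2 and 3 it had 91.3, 95.4 and 86.6 CPM. The fractions did not overlap. Vegfa and Nrp1 were the 2 of 7 tested genes that lay higher in every SM positive library, beside 10.4% of all genes tested. None of the 7 lay higher in every SM negative library, beside 9.47% of all genes tested. The log2 change was 0.15 ± 0.057 (SE), or 1.11-fold (edgeR, adjusted p = 0.281 without and 0.0227 with the block). With the block, the Vegfa call ended without pair 1 (adjusted p = 0.254) or pair 3 (adjusted p = 0.152, edgeR).

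Vegfb (ENSMUSG00000024962.13, chromosome 19, 6982473 to 6987651, minus strand) encodes a ligand of Flt1 and Nrp1. It had 37.3, 35.8 and 32.2 CPM in SM positive replicates 1, 2 and 3 and 42.7, 36.3 and 42.2 CPM in SM negative replicates 1, 2 and 3. SM negative replicate 2 lay below the highest SM positive library, so the fractions overlapped. The log2 change was -0.20 ± 0.086 (SE; edgeR, adjusted p = 0.332 without and 0.0365 with the block). In pair 2 the log2 difference was -0.02, against -0.19 in pair 1 and -0.39 in pair 3. With the block, the Vegfb call ended without pair 1 (adjusted p = 0.193) or pair 3 (adjusted p = 0.367, edgeR).

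Vegfc (ENSMUSG00000031520.6, chromosome 8, 54077606 to 54187096, plus strand) encodes the ligand of Flt4 that drives lymphatic vessel growth. It had 7.35, 5.60 and 5.83 CPM in SM positive replicates 1, 2 and 3 and 8.72, 7.59 and 7.35 CPM in SM negative replicates 1, 2 and 3. The highest SM positive and the lowest SM negative library nearly coincided. The log2 change was -0.33 ± 0.14 (SE; edgeR, adjusted p = 0.332 without and 0.0463 with the block). With the block, the Vegfc call ended without any 1 of the 3 pairs (adjusted p from 0.142 to 0.191). Leukocyte markers were also lower in sum: the 10 markers summed to 12.1 to 14.7 CPM in the SM positive libraries and to 15.2 to 16.0 CPM in the SM negative ones. Adgre1 and Cd3e had no count, and the sum came mostly from Cd14, an endotoxin co-receptor at 7.81 ± 1.299 and 8.22 ± 1.10 CPM (SD, n = 3), and from Cd68, a lysosomal glycoprotein. Cd68 stood at 4.90 ± 0.721 and 6.74 ± 1.10 CPM (SD, n = 3; adjusted p = 0.233 without and 0.0148 with the block, edgeR). Its blocked call also ended without any 1 pair (adjusted p from 0.0613 to 0.115). Their part in these differences was not tested.

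The remaining ligands were close to the detection limit. Vegfd, the other Flt4 ligand (ENSMUSG00000031380.10, chromosome X, 164373378 to 164402650, plus strand), had 10, 15 and 9 counts in SM positive and 14, 13 and 11 counts in SM negative replicates 1, 2 and 3. Its log2 change was -0.22 with a 95% interval of -0.998 to 0.57 (edgeR, adjusted p = 0.85). Pgf, placental growth factor (ENSMUSG00000004791.7, chromosome 12, 85166635 to 85177790, minus strand), had 9, 3 and 1 counts in SM positive and 3, 1 and 5 counts in SM negative replicates 1, 2 and 3. A difference in Pgf was not detectable at this depth.

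As shares of the summed ligand level the same values read as follows. Vegfa took 47.6%, 48.6% and 50.3% of the summed ligand level per kilobase of merged exons in SM positive replicates 1, 2 and 3. In SM negative replicates 1, 2 and 3 it took 41.2%, 46.1% and 40.6%. Vegfb took 44.0% to 46.0% in SM positive and 46.8% to 52.8% in SM negative libraries. Vegfc took 4.72% to 5.93% and 6.02% to 6.88%. The share of Vegfa was higher, and those of Vegfb and Vegfc lower, in each SM positive library than in every SM negative library. Shares of 1 sum are tied, so a higher Vegfa share lowers the others, and the CPM of Vegfb and of Vegfc overlapped between fractions. The shares restate the levels above and were not tested. Vegfd and Pgf each took less than 1% in every library.

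**Figure D4:**
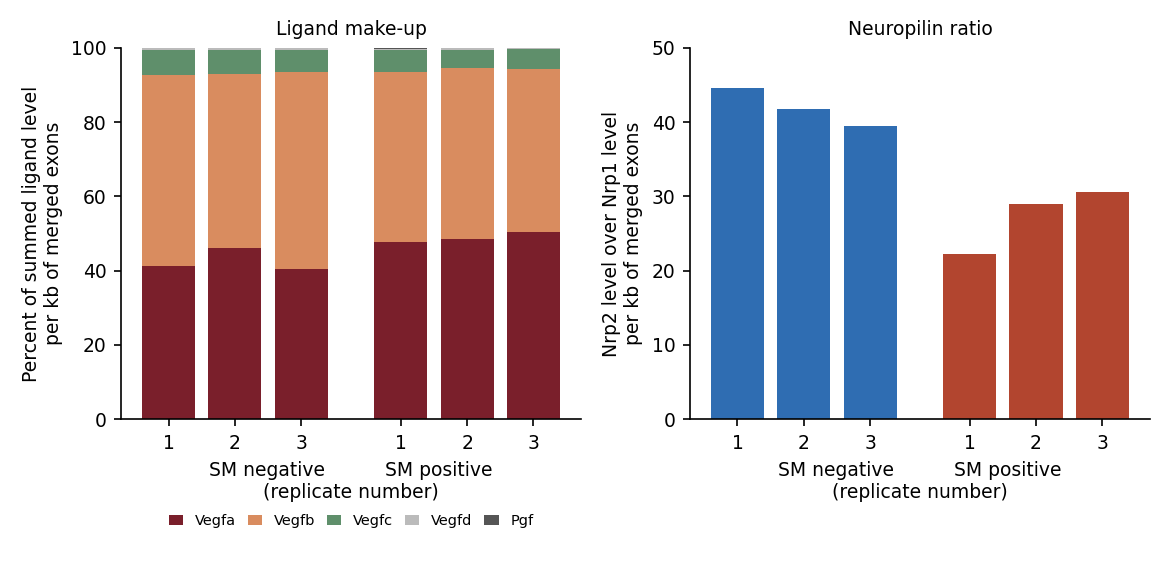
Left, percent of the summed ligand level (per kilobase of merged exons) taken by each ligand in each library; right, the ratio of Nrp2 to Nrp1 levels per kilobase, with SM negative libraries in blue and SM positive libraries in red. Vegfa and Vegfb make up nearly all ligand RNA, and the neuropilin ratio is 22.2 to 30.6 in SM positive and 39.5 to 44.6 in SM negative libraries.

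Genes that work with or upstream of the VEGF system were read from 6 lists. Over all 14038 genes the median log2 change was -0.001, and 49.8% of the genes had a positive value. The shares of all genes called, against which the counts below stand, were 1.14% higher and 0.214% lower without the block and 8.52% higher and 5.6% lower with it. Of 14 class 3 semaphorins, plexins and their adaptors, 9 were tested, 1 rose and none fell, with a median log2 change of 0.13. The riser was Sema3f, which encodes a semaphorin that binds Nrp2, at 118 ± 5.13 against 88.8 ± 7.97 CPM (SD, n = 3; log2 change 0.41, edgeR adjusted p = 0.0249). The Sema3f call ended without any 1 library except SM negative replicate 3 (adjusted p up to 0.115). With the block Plxna1 and Plxnd1, plexin signalling partners of neuropilins named here after their values were seen, rose too, at log2 changes of 0.23 and 0.26 (edgeR, adjusted p = 0.000982 and 0.0122). Both plexin calls ended without pair 1 (adjusted p = 0.071 for Plxna1 and 0.0852 for Plxnd1), and that of Plxnd1 also without pair 3 (0.0873).

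Of 36 genes that carry or restrain VEGF receptor signalling, 29 were tested, with a median log2 change of 0.07. Without the block 1 rose and with it 7, and none fell in either fit. The list includes phosphatases such as Ptprj and Ptpn1, which were among the 7. The 7 blocked calls became 1 without pair 1, 6 without pair 2 and 3 without pair 3. Pik3r1, the regulatory subunit p85α of PI 3-kinase, stood at 43.2 ± 3.58 and 32.1 ± 2.52 CPM (SD, n = 3; log2 change 0.43, edgeR adjusted p = 0.0415). Its call ended without any 1 library except SM positive replicate 1 (adjusted p up to 0.156). Of 25 genes that process VEGF or hold it in the matrix, 18 were tested, 1 rose without the block, and 6 rose and 1 fell with it, with a median log2 change of 0.06. Without 1 pair, 3 to 5 rose with the block. Thbs1, thrombospondin 1, a matrix glycoprotein known as an inhibitor of angiogenesis, stood at 1745 ± 240.1 and 1051 ± 136 CPM (SD, n = 3; log2 change 0.73, edgeR adjusted p = 0.0281). Its call ended without SM negative replicate 1 or 2 (adjusted p up to 0.128). The member that fell with the block was Mmp9, a gelatinase that can release matrix-bound Vegfa, at a log2 change of -0.16 (edgeR, adjusted p = 0.0446), a call that ended without pair 2 (0.200) or pair 3 (0.338).

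Of 17 genes that control Vegfa transcription, 14 were tested, none rose and 1 fell without the block, and 5 rose and 1 fell with it, with a median log2 change of 0.10. The gene that fell was Trp53, the p53 tumour suppressor, at 41.8 ± 0.531 and 53.4 ± 3.72 CPM (SD, n = 3; log2 change -0.35, edgeR adjusted p = 0.0349 without and 6.99e-05 with the block). Its unblocked call ended with each of the 6 libraries left out (adjusted p up to 0.148). The 5 that rose with the block, named after their values were seen, were Hif1a, the oxygen-regulated subunit of HIF-1, the oxygen sensors Egln1 and Egln3, Vhl, which directs HIF to degradation, and Cited2, which limits HIF activity. Hif1a stood at 249.97 ± 7.597 and 221.2 ± 6.999 CPM (SD, n = 3; log2 change 0.18, edgeR adjusted p = 0.168 without and 0.0062 with the block). Without 1 pair the blocked call of Hif1a ended for pair 1 (adjusted p = 0.128) and pair 3 (0.0928), that of Vhl for each pair (0.0788 to 0.195) and that of Cited2 for pair 3 (0.155), while those of Egln1 and Egln3 held for each pair (up to 0.0248). Epas1, which encodes HIF-2α, had no count in any library.

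HIF target genes, to which Vegfa itself is usually counted, had 20 tested members besides Vegfa. Of these 1 rose without the block and 11 with it, and none fell in either fit. Without 1 pair, 7 to 8 rose with the block. A positive log2 change was found in 17, with a median of 0.19, beside the 0.15 of Vegfa. Car9, a hypoxia-induced carbonic anhydrase, stood at 139.0 ± 13.2 and 97.0 ± 8.61 CPM (SD, n = 3; log2 change 0.52, edgeR adjusted p = 0.0177), and its call ended without SM negative replicate 1 or 3 (adjusted p up to 0.0827). Of 17 genes known to respond to VEGF in endothelium, 13 were tested, 2 rose without the block and 3 with it, and none fell, with a median log2 change of 0.007. Adamts9, a secreted metalloprotease, stood at 17.9 ± 0.964 and 11.0 ± 0.959 CPM (SD, n = 3; log2 change 0.70, edgeR adjusted p = 0.00962). Its call ended without SM negative replicate 2 or 3 (adjusted p up to 0.0538). Unc5b, a netrin receptor, stood at 238.4 ± 16.8 and 187.4 ± 14.2 CPM (SD, n = 3; log2 change 0.35, edgeR adjusted p = 0.0451), and its call ended without any 1 library except SM positive replicate 2 (adjusted p up to 0.177). With the block the calls of Sema3f, Pik3r1, Thbs1, Trp53, Car9, Adamts9 and Unc5b held without any 1 pair (adjusted p up to 0.0122, edgeR). These genes were named for their small p without the block. Genes on the opposite strand overlap the spans of Thbs1, Car9 and Adamts9, and predicted genes on the same strand overlap Pik3r1 and Unc5b. Among the named markers, Egfl7, Pdgfra, Reln and Krt7 overlap other genes too. Only whole gene spans were compared here, so counts may be shared, but whether exons overlap is not known.

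**Figure D5:**
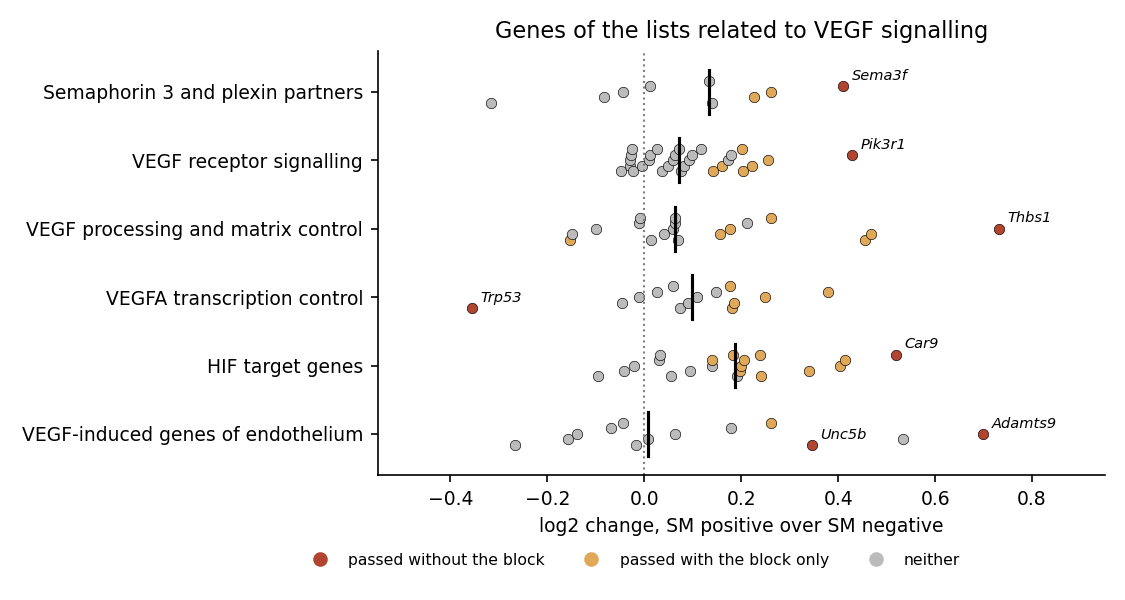
Log2 change (SM positive over SM negative) of each tested gene in 6 lists related to VEGF signalling, coloured by whether it passed without the replicate block, with it only, or in neither fit; black bars are list medians and the dotted line is the median of all genes tested. Named genes passed without the block, and the HIF target list has the highest median, 0.19.

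The genes whose log2 CPM followed Nrp1 most closely over the 6 libraries, among 9760 genes with a mean of at least 5 CPM, were Tgtp2 (Pearson r = 0.994), Por (r = 0.989) and Trim30a (r = 0.984). Tgtp2, an interferon-induced GTPase gene with a close paralogue that may share its reads, had 14.1, 10.1 and 9.57 CPM in SM positive and 6.57, 6.52 and 7.06 CPM in SM negative replicates 1, 2 and 3. Like Nrp1 it was highest in SM positive replicate 1. For Vegfa the closest were Mier1 (r = 0.9953), Hivep2 (r = 0.9949) and Slc25a13 (r = 0.9943). With 6 libraries high values are common: 41 genes had r over 0.95 with Nrp1 and 34 with Vegfa. The libraries share their fraction and replicate structure, so these values only describe the pattern.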

How the data were processed

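RNA-seq of 6 libraries was analysed from the authors' deposited table of expected counts (estimates by gene, some of them fractional). Programs listed in the submitters' processing notes are RSEM 1.3.1, STAR 2.6.0a and FastQC 0.11.5, and the build is GRCm38. The library kit was stranded, per the labels' protocols. Whether counting used strand is not given in the sources used here. Symbols, coordinates and lengths came from GENCODE M21, which matched 99.8% of identifiers, and expected counts were rounded.

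Genes passing edgeR's filterByExpr (14038) were scaled by TMM and tested in R 4.3.3 with edgeR 4.0.16 (quasi-likelihood, robust), adjusted by Benjamini-Hochberg over all genes, with a threshold of 0.05. The method was tested on simulated data without a replicate effect and with changes larger than those of Vegfa, Vegfb and Vegfc. That test therefore does not show how the fits perform for paired libraries or for such small changes. Alternatives were a replicate block, other scalings and filters, DESeq2 1.42.0, limma-voom (limma 3.58.1), a non-robust fit and leaving out libraries or pairs.

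Replicate numbers were taken to pair libraries, because deviations from fraction means correlated at 0.22, 0.28 and 0.196 between same-numbered libraries (minimum 0.1). Between differently numbered libraries they correlated at -0.175 to -0.0435. Deviations within a fraction cancel out for each gene, so positive values at the same number make the other values negative on average. The negative values are therefore no further evidence of pairing. The fit without the block was nevertheless kept as the main one, and the labels do not say what a replicate number marks. The SE and intervals in the text come from this fit and so leave the pairing out. Calls with the block, which uses the pairing, are given beside it. With the block the adjusted p was 0.463 for Flt1, 0.564 for Nrp2 and 0.742 for Vegfd (edgeR). Whether replicates were separate cultures is not in the labels. The p-values therefore reflect only how these libraries vary, possibly for technical reasons. With 3 libraries per fraction, precision is limited by their number as well as by depth.

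The genes of the set and all lists were chosen with earlier results of these data known. Named were the 10 genes, from each related list up to 2 genes that rose and 2 that fell without the block, by smallest p (mean at least 1 CPM), the 2 highest markers per marker list, and the 3 genes most correlated with Nrp1 and with Vegfa.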

Additional observations from a re-analysis of the deposited data

How the results depend on the processing

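Each of the 7 tested genes of the set was read in 17 alternative settings, Vegfd in 16, which gave 118 results. None of these changed direction, and 103 kept the side of the threshold. Pgf, Kdr and Flt4 were under the filter. Without it Pgf (adjusted p = 0.877) and Kdr (0.713, edgeR) did not pass, and Flt4, with no count, had no fit. The replicate block gave 1982 genes past the threshold in place of 190, no filter 663, DESeq2 334 and an adjusted p of 0.01 gave 33. Leaving out 1 library without the block gave 25 to 123 genes, and leaving out 1 pair with the replicate block gave 705 to 1793.

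With the replicate block the log2 changes that newly passed were 0.15 for Vegfa, -0.20 for Vegfb and -0.33 for Vegfc, and no call of a set member was lost. Over the fits leaving out 1 library or pair, log2 changes ran from 0.11 to 0.18 for Vegfa, -0.28 to -0.11 for Vegfb and 0.46 to 0.82 for Nrp1. The Nrp1 call was lost at log2 changes of 0.70 with library totals (adjusted p = 0.0524), the 1 CPM filter in 3 libraries (0.0505), limma-voom (0.0769) and no robust estimation (0.0593, edgeR). The cause was not tested.

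Counts past the threshold per list also moved. With the block they were 3 for semaphorins and plexins, 7 for receptor signalling, 7 for processing and matrix, 6 for Vegfa transcription, 11 for HIF targets, 1 for fibroblast, 1 for leukocyte and 3 for epithelial markers. No filter gave 2, 2 and 2 for the first 3 of these lists and 3 for HIF targets, where DESeq2 gave 2, as it did for receptor signalling. Limma-voom gave 0 for receptor signalling and 0 for Vegfa transcription, and no robust estimation 0 for receptor signalling. VEGF-induced genes had 1 under limma-voom, under no robust estimation, with library totals and with the 1 CPM filter. Without 1 library or pair, counts ran from 0 to 3 for semaphorins and plexins, 0 to 6 for receptor signalling, 0 to 5 for processing and matrix, 0 to 5 for Vegfa transcription, 0 to 8 for HIF targets, 0 to 3 for VEGF-induced genes and 0 to 4 for epithelial markers.

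Per longest transcript in place of merged exons, the mean ratio of Nrp2 to Nrp1 was 22.7 (34.6 with merged exons), of Nrp2 to Flt1 106.1 (117.9) and of Vegfa to Vegfc 9.91 (7.98), and the Vegfc share was 4.76% (5.86%). The marker genes Egfl7 and Cd14, which passed in no fit, changed sign with libraries left out, Egfl7 to -0.0257 without SM negative replicate 2 and -0.00904 without pair 3 (block), and Cd14 to 0.00731 without SM positive replicate 3 and 0.0422 without SM negative replicate 1. The values farthest the other way were 0.195 for Egfl7 without SM negative replicate 1 and -0.224 for Cd14 without SM positive replicate 1.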
